A study of Equus caballus with 68 samples.

Results

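The genes described here are 10 named matrix metalloproteinases (MMPs) and tissue inhibitors of metalloproteinases (TIMPs): MMP1, MMP2, MMP3, MMP9, MMP12, MMP13, MMP14, TIMP1, TIMP2 and TIMP3. They were found by their gene symbol in the expression table, and 9 of the 10 had a row among the 30371 genes listed. No row carried the symbol MMP3. Of these 9, 8 passed the filter on low values (at least 0.5 GeTMM in at least 7 libraries) and were tested beside 14570 genes in all, while MMP13 did not pass. GeTMM is a read count corrected for gene length and for library size, so levels can be compared between genes as well as between libraries. In the table MMP14 was ENSECAG00000008351, MMP9 was ENSECAG00000013081, MMP12 was ENSECAG00000019445 and MMP1 was ENSECAG00000023733. MMP2 was ENSECAG00000000953 and MMP13 was ENSECAG00000005506. TIMP1 was ENSECAG00000014259, TIMP2 was ENSECAG00000011834 and TIMP3 was ENSECAG00000018314.

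The cells were bone marrow mononuclear cells (BMNC) of 8 adult Thoroughbred horses aged 3 to 9 years, 2 females and 6 geldings by their labels. BMNC are a mixed marrow fraction that holds myeloid and lymphoid precursors, monocytes and a few stromal cells. Uncultured BMNC at 0 h gave 8 libraries. The other cells of each horse were cultured in its own synovial fluid, either normal fluid of a healthy joint (SF) or inflamed fluid (ISF) drawn 8 h after a lipopolysaccharide injection into another joint. The fluid was freed of cells and topped up every 48 h, and no group was grown without joint fluid. There were 7 horses per fluid at 48 h, 8 at 96 h, 8 at 6 d and 7 at 10 d, which with the uncultured cells made 68 libraries in 9 groups. Moon had no 48 h cultures and Flash no 10 d cultures. Each library was 1 culture of 1 horse, so the spread within a group was the spread between horses.

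MMPs are zinc-dependent proteases that cut the proteins of the extracellular matrix, and most are made as inactive proenzymes. MMP1 and MMP13 are collagenases, MMP2 and MMP9 are gelatinases, MMP12 is the macrophage elastase, MMP3 is a stromelysin and MMP14 sits in the cell membrane. TIMPs bind the active enzymes one to one and block them. TIMP2 has a second role, because together with MMP14 it captures the MMP2 proenzyme at the cell surface for activation. In joints, an excess of MMP over TIMP activity is a known feature of cartilage loss, and macrophages are a source of MMP9, MMP12, MMP14 and TIMPs. The RNA level of a protease says nothing of how much of it was activated. In the RefSeq annotation of the TB-T2T horse assembly MMP8, MMP1, MMP3, MMP12 and MMP13 lie in this order on the same chromosome. The expression table paired no row with the symbol MMP3 or with MMP8, the neutrophil collagenase, and whether reads of these genes were counted elsewhere was not tested.

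Between 15653436 and 35971635 reads were counted on genes per library. The SF library of Moon at 6 d stood farthest from its group, with a GeTMM sum of 2321940 against 1036630 in the ISF library of the same horse and time. At 96 h in ISF, the Dealings library correlated best with the libraries of Dreamer and the Dreamer library with those of Dealings, while the other 66 of 68 libraries correlated best with their own horse, so within-horse values at 96 h for these horses rest on labels the data went against. Values without these libraries are given for the calls at 96 h and 6 d that rest on them and for the ratios. Levels of cell type markers changed in culture. The 7 macrophage markers summed to 184 to 307 GeTMM at 0 h and to 29897 to 82485 GeTMM at 10 d over both fluids. The 6 listed neutrophil precursor markers summed to 11356 to 20997 GeTMM at 0 h and to 0.759 to 1648 GeTMM at 10 d. In bulk RNA, fewer cells of a type and less RNA per cell cannot be told apart, and this holds for every level below.

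At each time at least 1 member differed between the fluids. A gene was called at a false discovery rate (FDR) under 0.05 in limma on log2(GeTMM + 1), adjusted over all tested genes, and log2 differences below are on that scale with their standard error (SE). At 48 h 1 of the 8 tested members was called (TIMP1, higher in ISF), against 1.68% of all tested genes (0.872% higher and 0.81% lower). At 96 h 2 of 8 were called, TIMP1 higher and TIMP2 lower, against 10.5% of all genes (6.16% higher and 4.3% lower). At 6 d 5 of 8 were called, against 30.2% of all genes (16.7% higher and 13.6% lower): MMP9, MMP12, MMP14 and TIMP1 were higher in ISF and TIMP2 was lower. At 10 d 4 of 8 were called, against 20.8% of all genes (9.95% higher and 10.8% lower): MMP9, MMP12 and TIMP1 were higher in ISF and MMP1 was lower. The median log2 difference of the 8 members was 0.66, 0.68, 0.88 and 0.04 at 48 h, 96 h, 6 d and 10 d, while the median of all tested genes was -0.02, -0.00268, 0 and -0.02. Without the library of Moon the same 5 members were called at 6 d.

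**Figure D1:**
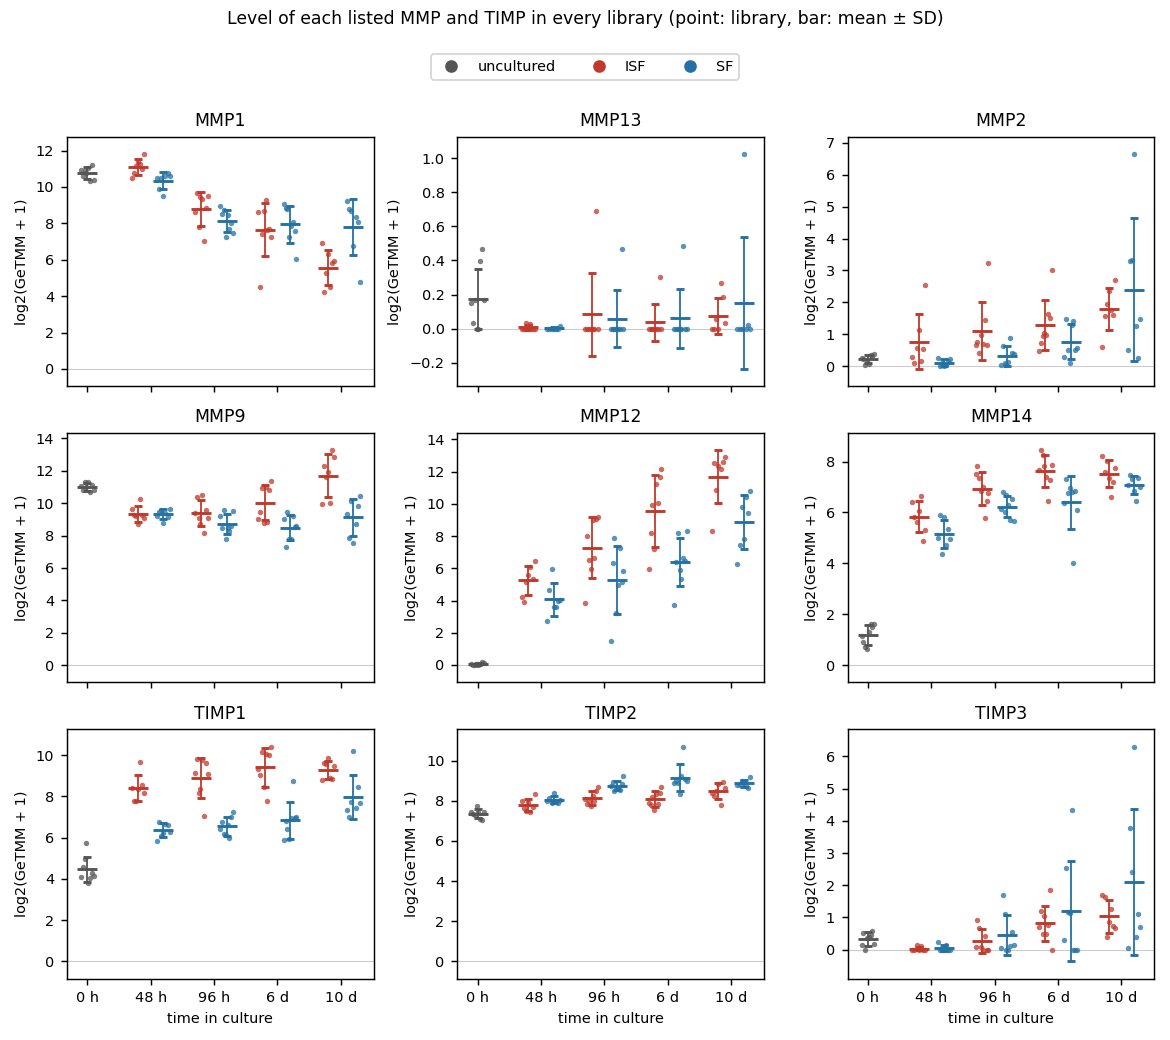
Level of the 9 listed members in each of the 68 libraries, as log2(GeTMM + 1) on a scale that differs between panels, against time in culture. Points are libraries (grey uncultured, red ISF, blue SF) and bars are means ± SD over horses. By mean, MMP9 and MMP12 were highest in ISF at 10 d and MMP1 was lowest there. Mean TIMP1 was higher in ISF than in SF from 48 h on, while libraries of the fluids overlapped at 96 h, 6 d and 10 d.

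MMP1, the interstitial collagenase that starts the cleavage of fibrillar collagen, was one of the most abundant members in uncultured cells. Its 8 levels at 0 h ran from 1307 GeTMM (Moon) over a median of 1794 to 2332 (Ollie), with a mean of 1776 ± 372 (SD, n = 8). At 48 h the ISF cultures held 2299 ± 707 GeTMM (n = 7) and the SF cultures 1338 ± 370 (n = 7), neither of which passed the test against uncultured cells (log2 change 0.34, FDR 0.58, and -0.44, FDR 0.49). From 48 h to 96 h MMP1 fell in both fluids, by 2.33 on the log2 scale in ISF (SE 0.48, FDR 0.000244) and by 2.19 in SF (SE 0.48, FDR 0.000316). Without the Dealings and Dreamer ISF libraries the ISF change was -2.32 (FDR 0.00111). These cultures kept 509 ± 249 GeTMM in ISF and 303 ± 124 in SF (n = 8 per fluid).

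At 10 d the fluids parted for MMP1. In ISF its levels were 18.0 in Dealings, 21.3 in Moon, 38.2 in Dreamer, 55.3 in Ollie, 59.3 in RimRun, 79.9 in Lurie and 120 GeTMM in Catnip. In SF they were 26.0 in RimRun, 107 in Lurie, 265 in Ollie, 319 in Moon, 405 in Dreamer, 449 in Dealings and 590 GeTMM in Catnip. The groups overlapped through the SF culture of RimRun, and ISF was the lower fluid in 6 of 7 horses. The difference was -2.22 on the log2 scale (SE 0.50, FDR 0.000682), or 4.67-fold lower in ISF. It came with a further fall in ISF from 6 d to 10 d (log2 change -2.07, SE 0.48, FDR 0.00216), where the SF change was -0.15 (FDR 0.88). The change of the ISF to SF difference over this interval was -1.91 (SE 0.68) with an unadjusted p of 0.00679 and an FDR of 0.18, so the changes in the 2 fluids were not shown to differ.

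At 10 d the neutrophil precursor markers, like MMP1, were lower in ISF, but earlier times differed. Their median summed level was 14556 GeTMM in uncultured cells and 3222 in ISF at 48 h, a step at which MMP1 did not pass the test. Most of the sum at 0 h was LTF, with a median of 10095 GeTMM, against 177 in ISF at 48 h. Medians at these times were 682 and 724 GeTMM for MPO and 1478 and 1098 for AZU1. For ELANE they were 1321 and 725, for OLFM4 762 and 280, and for CEBPE 260 and 49.1. At 96 h the mean log2 level of these markers was 7.19 ± 1.56 in ISF and 7.86 ± 1.05 in SF. Mean MMP1 was higher in ISF there. At 6 d MMP1 was higher in ISF in 4 of 8 horses. The summed marker level at 6 d had a median of 192 GeTMM in ISF (range 2.76 to 2393) and 1613 in SF (range 89.4 to 4799). At 10 d the medians were 18.2 GeTMM in ISF (range 0.759 to 63.7) and 173 in SF (range 2.15 to 1648). None of the 6 listed markers was at 0 in every library of either group, and 8 genes had been named for the list. Dealings had the lowest summed level of these markers in both fluids at 10 d, and its MMP1 was the lowest in ISF and the second highest in SF. The part of these cells in the MMP1 difference was not tested.

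MMP13, the collagenase 3 of cartilage and bone, was close to undetected. It had no read in 49 of the 68 libraries and reached 0.5 GeTMM in only 2 of them, and all libraries together held 183 reads. Single libraries held most of these reads. In SF at 10 d Lurie had 47 reads (1.03 GeTMM) of the 48 in that group. Ollie had 26 reads in ISF and 19 in SF at 96 h, where the other 7 horses had none in either fluid. In a library with 0 reads, a level of up to about the worth of 3 reads is not excluded.

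MMP9, the gelatinase stored in neutrophil granules and made by macrophages and osteoclasts, was the most abundant member at 0 h, at 1677 to 2574 GeTMM with a mean of 2100 ± 344 (n = 8). It fell over the first 48 h by 1.67 on the log2 scale in ISF (SE 0.42, FDR 0.000558) and by 1.70 in SF (SE 0.42, FDR 0.000574). The levels reached were 688 ± 273 GeTMM in ISF and 650 ± 129 in SF (n = 7 per fluid). The fluids did not differ detectably at 48 h (log2 difference 0.03, SE 0.43, FDR 0.99) or at 96 h (0.64, SE 0.40, FDR 0.35). Without the Dealings and Dreamer ISF libraries the 96 h value was 0.51 (FDR 0.58).

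At the later times MMP9 was higher in ISF. At 6 d the ISF cultures ran from 440 (Flash) over a median of 1264 to 2680 GeTMM (RimRun), and the SF cultures from 158 (Dealings) over 371 to 716 GeTMM (Dreamer). MMP9 was higher in ISF in 6 of 8 horses, with a log2 difference of 1.57 (SE 0.40, FDR 0.00197), or 2.96-fold. It was 1.67 (FDR 0.0012) without the SF library of Moon. At 10 d the ISF levels were 971 in Catnip, 1013 in Moon, 3188 in Dreamer, 3974 in Lurie, 4985 in Dealings, 7571 in RimRun and 9859 GeTMM in Ollie. The SF levels were 186 in Lurie, 230 in Dealings, 428 in Moon, 639 in Catnip, 906 in Ollie, 1131 in Dreamer and 1371 GeTMM in RimRun. Each of the 7 horses had more MMP9 in ISF, although the ranges of the fluids overlapped. The log2 difference was 2.58 (SE 0.43, FDR 7.27e-06), or 5.99-fold.

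From 6 d to 10 d MMP9 rose in ISF by 1.67 on the log2 scale (SE 0.42, FDR 0.00416), although a fit with only the compared groups gave an FDR of 0.0886. In SF the change was 0.65 (FDR 0.35). After 10 d in ISF MMP9 stood at 4509 ± 3291 GeTMM (n = 7), which did not pass the test against 0 h (log2 change 0.69, FDR 0.13), whereas in SF it stayed below 0 h (699 ± 455 GeTMM, log2 change -1.90, FDR 6.17e-05). Both fluids are compared with the same 0 h libraries. The neutrophil precursor markers were lower in ISF than in SF at 6 d and 10 d, as given above, where MMP9 was higher. Over 0 to 48 h MMP9 fell, and the median sum of these markers, at 0 h mostly LTF, fell as well. It was 14556 GeTMM at 0 h, and 3222 in ISF and 2904 in SF at 48 h. The part of these cells in the MMP9 levels was not tested.

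MMP2, the gelatinase typical of fibroblasts and other stromal cells, was scarce in most libraries. It reached 0.5 GeTMM in 33 of 68 libraries and had a mean of 0.176 ± 0.0995 GeTMM at 0 h (n = 8). In ISF, RimRun was far above the other horses, with 4.82 GeTMM at 48 h, 8.49 at 96 h and 7.00 at 6 d, where the next highest horse had 1.22, 1.71 and 2.09. At 10 d in SF the levels were 0.194 in Ollie, 0.416 in Catnip, 1.42 in Moon, 1.80 in RimRun, 8.85 in Dealings, 9.02 in Dreamer and 99.0 GeTMM in Lurie. MMP2 was higher in ISF in 7 of 7 horses at 48 h and in 8 of 8 at 96 h, but neither difference passed the test (log2 0.66, FDR 0.58, and 0.78, FDR 0.29). The rise in SF from 6 d to 10 d (log2 1.62, SE 0.46, FDR 0.0306) depended on single horses. Its FDR was 0.165 without Lurie, 0.111 without Dreamer, 0.0651 without Dealings and 0.0686 without Flash. It was also 0.502 with only the compared groups in the fit and 0.1 with limma voom on recovered reads.

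TIMP3, the inhibitor that binds to the matrix itself, had no read in 20 of 68 libraries and reached 0.5 GeTMM in 24. In SF at 6 d it was 19.4 GeTMM in Lurie, 4.80 in Dealings, 1.26 in Dreamer, 1.22 in Flash and 0.233 in Catnip, and it had no read in Moon, Ollie and RimRun. In SF at 10 d it was 78.0 GeTMM in Lurie, 12.7 in Dealings and 4.26 in Dreamer, and between 0.0388 and 1.17 in the other 4 horses. In ISF at 10 d it stayed between 0.310 and 2.23 GeTMM. No ISF to SF difference of TIMP3 passed the test (log2 -1.07, SE 0.50, FDR 0.13 at 10 d).

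The stromal markers (COL1A1, COL1A2, COL3A1, DCN and LUM) were also high in Lurie, Dreamer and Dealings. Their mean log2 level in SF at 10 d was 9.39 in Lurie, 6.53 in Dreamer and 4.52 in Dealings, against 0.10 to 2.59 in the other 4 horses. Their summed level in that group ran from 0.406 (Moon) over a median of 27.6 to 4038 GeTMM (Lurie). In ISF at 10 d it ran from 0.123 to 49.2 GeTMM with a median of 0.526. In ISF at 48 h, where RimRun had the raised MMP2, the stromal markers summed to at most 0.528 GeTMM in any horse. None of the 5 markers was at 0 in every library of a group, and their part in the MMP2 and TIMP3 levels was not tested.

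**Figure D2:**
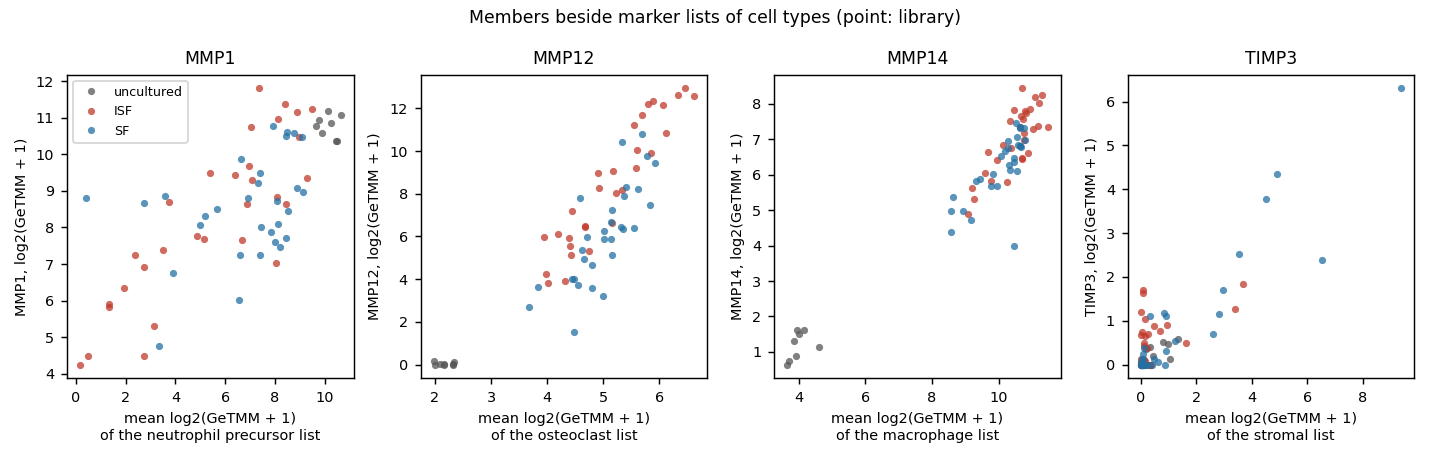
Level of a member against the mean level of a marker list in the same library, both as log2(GeTMM + 1), for MMP1 and neutrophil precursor, MMP12 and osteoclast, MMP14 and macrophage, and TIMP3 and stromal markers. Each point is 1 of 68 libraries (grey uncultured, red ISF, blue SF): the SF culture of Lurie at 10 d is the point at the upper right of the TIMP3 panel, and the SF culture of Moon at 6 d lies under the other cultures in the MMP14 panel.

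MMP12, the macrophage elastase, had the widest range of all members. In uncultured cells it was near the limit of detection, with no read in 3 of 8 horses. The most reads in a library were 5 (RimRun, 0.0968 GeTMM), and the highest level was 0.137 GeTMM (Ollie, 4 reads). All 8 uncultured libraries held 12 reads, so no fold is given against 0 h. After 48 h it was detected in every culture, at 43.8 ± 26.0 GeTMM in ISF and 20.6 ± 19.1 in SF (n = 7 per fluid). The rise over 0 to 48 h passed the test in both fluids, with a size that depends on the 1 GeTMM added before taking logs (log2 change 5.20, SE 0.81, FDR 1.53e-07 in ISF, and 4.02, SE 0.81, FDR 3.2e-05 in SF).

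At 96 h MMP12 reached 269 ± 239 GeTMM in ISF and 75.2 ± 81.3 in SF (n = 8 per fluid). The log2 difference of 2.00 (SE 0.78) had an FDR of 0.0885 and, with horse as a block, 0.00783. ISF was the higher fluid in 6 of 8 horses. Without the Dealings and Dreamer ISF libraries the difference stayed at 2.00 with an FDR of 0.158. The block uses the horse labels that the data went against there.

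At 6 d the ISF levels of MMP12 ran from 60.1 (Catnip) over a median of 1016 to 4587 GeTMM (RimRun), and the SF levels from 12.2 (Catnip) over 85.3 to 322 GeTMM (RimRun). Each of the 8 horses was higher in ISF. The log2 difference was 3.16 (SE 0.78, FDR 0.00124), or 8.96-fold, the largest of any member in any fluid comparison. It was 3.21 (FDR 0.00147) without the SF library of Moon. At 10 d the ISF levels were 312 in Catnip, 1837 in Dreamer, 4669 in Moon, 5249 in Lurie, 6065 in Dealings, 6235 in Ollie and 7824 GeTMM in RimRun. The SF levels were 76.3 in Catnip, 176 in Dealings, 225 in Lurie, 699 in Ollie, 883 in Dreamer, 1371 in Moon and 1806 GeTMM in RimRun.

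Catnip was thus the lowest horse and RimRun the highest in both fluids at both late times. All 7 horses were higher in ISF at 10 d, with a log2 difference of 2.82 (SE 0.83, FDR 0.0103), or 7.07-fold. The difference did not pass when Dealings (FDR 0.0763) or Lurie (FDR 0.0567) was left out. The single steps after 48 h did not pass the test without a horse term, but several did with horse as a block. In ISF the step from 48 h to 96 h was 2.02 (FDR 0.0699, blocked 0.00881), that from 96 h to 6 d was 2.27 (FDR 0.0663, blocked 0.00368) and that from 6 d to 10 d was 2.14 (FDR 0.0778, blocked 0.0101). For the ISF steps that involve 96 h, the block uses the Dealings and Dreamer labels that the data went against. In SF the step from 6 d to 10 d was 2.49 (FDR 0.055, blocked 0.00578).

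Osteoclast markers, chosen because MMP9 and MMP12 are also made by fused cells of the macrophage line, had a higher average level in ISF at 10 d, without a test. Their mean log2 level was 6.02 ± 0.57 in ISF and 5.45 ± 0.50 in SF (n = 7 per fluid), with summed levels of 4866 to 19015 and 3604 to 9557 GeTMM. CTSK, a collagen-cutting cysteine protease, made up most of the sum, with a median of 12980 GeTMM in ISF and 5453 in SF. The calcitonin receptor CALCR, a defining marker of osteoclasts, was at or near 0, at no more than 0.202 GeTMM in ISF and 0.109 in SF. ACP5, another osteoclast marker, went the other way, with a median of 272 GeTMM in ISF and 563 in SF. OCSTAMP, DCSTAMP and ATP6V0D2, the other markers of the list, had higher medians in ISF. These were 24.8 against 5.03, 22.0 against 14.1 and 60.0 against 30.8 GeTMM. For OCSTAMP the libraries of the fluids did not overlap (lowest 8.95 in ISF, highest 8.01 in SF). Catnip, the horse with the lowest MMP12, also had the lowest osteoclast marker level in ISF at 10 d (4.92). In SF at 10 d the lowest level was that of Lurie (4.59), and Catnip had 5.02. The highest level in ISF at 10 d was that of Dealings (6.62), while RimRun, with the highest MMP12, had 6.45. At 96 h the mean level of the list was 4.84 ± 0.59 in ISF and 5.04 ± 0.31 in SF, where mean MMP12 was higher in ISF. By median at 96 h, CTSK (2767 against 4906 GeTMM) and ACP5 (170 against 901) were lower in ISF. OCSTAMP (9.10 against 1.71), DCSTAMP (6.31 against 5.47) and ATP6V0D2 (34.4 against 32.7) were higher there. The part of fused cells in the MMP9 and MMP12 levels was not tested.

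MMP14, the membrane-type protease that activates the MMP2 proenzyme and cuts collagen around migrating cells, was low in uncultured cells and rose in culture. Its 8 levels at 0 h ran from 0.557 (Flash) to 2.08 GeTMM (RimRun). At 48 h it stood at 60.0 ± 24.7 GeTMM in ISF and 37.1 ± 14.8 in SF (n = 7 per fluid), a log2 rise of 4.65 (SE 0.31, FDR 2.59e-20) and 3.98 (SE 0.31, FDR 2.62e-17). A second rise of 1.11 in ISF (SE 0.31, FDR 0.00637) and 1.06 in SF (SE 0.31, FDR 0.00629) followed by 96 h. The ISF value had an FDR of 0.0558 without these libraries of Dealings and Dreamer.

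At 6 d MMP14 ran from 85.9 (Moon) over a median of 214 to 346 GeTMM (Dealings) in ISF, and from 15.0 (Moon) over 109 to 158 GeTMM (Dealings) in SF. Each of the 8 horses was higher in ISF. The log2 difference was 1.25 (SE 0.30, FDR 0.000916), or 2.37-fold, and 0.90 (SE 0.26, FDR 0.00499) without the SF library of Moon. MMP14 was also higher in ISF in 7 of 8 horses at 96 h (log2 0.71, SE 0.30, FDR 0.117). This value passed with horse as a block (FDR 0.0369) and without the SF library of Moon at 6 d (FDR 0.041). Without the Dealings and Dreamer ISF libraries it was 0.50 (FDR 0.405), and the block uses the horse labels that the data went against there. At 10 d the fluids differed by 0.46 (SE 0.32, FDR 0.33), with 194 ± 67.6 GeTMM in ISF and 136 ± 31.0 in SF (n = 7 per fluid). The macrophage markers were also higher in ISF, at a mean log2 level of 10.87 ± 0.28 against 10.50 ± 0.16 in SF at 6 d (n = 8 per fluid), and their part in the MMP14 difference was not tested.

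TIMP1, the inducible inhibitor that also binds the MMP9 proenzyme, was the only member called between the fluids at 48 h. At 48 h its ISF levels ran from 218 (Dreamer) over a median of 328 to 801 GeTMM (Lurie), and its SF levels from 55.8 (Catnip) over 76.8 to 107 GeTMM. The 2 groups did not overlap, and each of the 7 horses was higher in ISF. The log2 difference was 2.04 (SE 0.39, FDR 0.00185), or 4.12-fold. At 96 h TIMP1 stood at 554 ± 287 GeTMM in ISF and 96.5 ± 31.1 in SF (n = 8 per fluid). The log2 difference of 2.34 (SE 0.37, FDR 7.46e-06) was 2.3 (FDR 6.53e-05) without the Dealings and Dreamer ISF libraries.

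At 6 d the ISF levels of TIMP1 were 218 in Moon, 352 in Flash, 521 in Dealings, 635 in Catnip, 1046 in Ollie, 1071 in Lurie, 1144 in Dreamer and 1370 GeTMM in RimRun. The SF levels were 58.7 in Catnip, 60.4 in Flash, 84.1 in Dreamer, 111 in Dealings, 123 in Lurie, 124 in Ollie, 129 in RimRun and 431 GeTMM in Moon. Moon was the only horse with less TIMP1 in ISF. The log2 difference was 2.56 (SE 0.37, FDR 1.68e-07), or 5.91-fold, and 2.84 (SE 0.36, FDR 7.96e-09) without the SF library of Moon.

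By 10 d the gap in TIMP1 was smaller, with 653 ± 196 GeTMM in ISF and 344 ± 376 in SF (n = 7 per fluid). The SF cultures ran from 128 (Dealings) over a median of 207 to 1182 GeTMM in Lurie, the horse with the high stromal markers. Without Lurie the SF mean was 204 ± 76.6 GeTMM (n = 6). TIMP1 was higher in ISF in 6 of 7 horses, with a log2 difference of 1.32 (SE 0.39, FDR 0.0114), or 2.49-fold. It did not pass when Dealings (FDR 0.0878) or Dreamer (FDR 0.0502) was left out. The change of the difference from 6 d to 10 d was -1.25 (SE 0.54, unadjusted p = 0.0242, FDR 0.277, limma), so the narrowing was not shown. In SF the step from 6 d to 10 d was 1.14 (FDR 0.0649), which passed with horse as a block (FDR 0.0396).

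TIMP2, the constitutive inhibitor that also serves MMP2 activation, was lower in ISF than in SF where called, opposite to TIMP1, while both rose from 0 h to 10 d. It was 165 ± 24.6 GeTMM at 0 h (n = 8) and the most abundant TIMP there. It rose in SF over the first 48 h (log2 0.69, SE 0.18, FDR 0.00164) and again by 96 h (log2 0.71, SE 0.18, FDR 0.00219). In ISF the first step was 0.42 (SE 0.18, FDR 0.0476), with an FDR of 0.0614 to 0.128 when Catnip, Dealings, Dreamer, Ollie or RimRun was left out and 0.0663 without the filter on low values. The next ISF step was 0.35 (FDR 0.2).

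At 96 h TIMP2 ran from 209 (Flash) over a median of 264 to 414 GeTMM in ISF and from 359 (Dreamer) over 418 to 596 GeTMM in SF. Each of the 8 horses was lower in ISF, with a log2 difference of -0.63 (SE 0.18, FDR 0.0147), or 1.54-fold lower. The value was -0.55 (FDR 0.0765) without the Dealings and Dreamer ISF libraries. At 6 d the ISF levels ran from 184 (Flash) over 264 to 416 GeTMM and the SF levels from 322 (Flash) over 509 to 1659 GeTMM in Moon. All 8 horses were again lower in ISF, by -1.07 on the log2 scale (SE 0.18, FDR 3.82e-06), or 2.10-fold lower. Without the SF library of Moon the difference was -0.85 (SE 0.15, FDR 8.97e-06). At 10 d it was -0.38 (SE 0.19, FDR 0.16), with 367 ± 91.4 GeTMM in ISF and 467 ± 65.0 in SF (n = 7 per fluid). When each library was rescaled to the same sum, that value was -0.59 (FDR 0.00366). In that setting all tested genes had a median log2 difference of -0.18 at 10 d, with 643 called higher and 2493 lower in ISF.

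**Figure D3:**
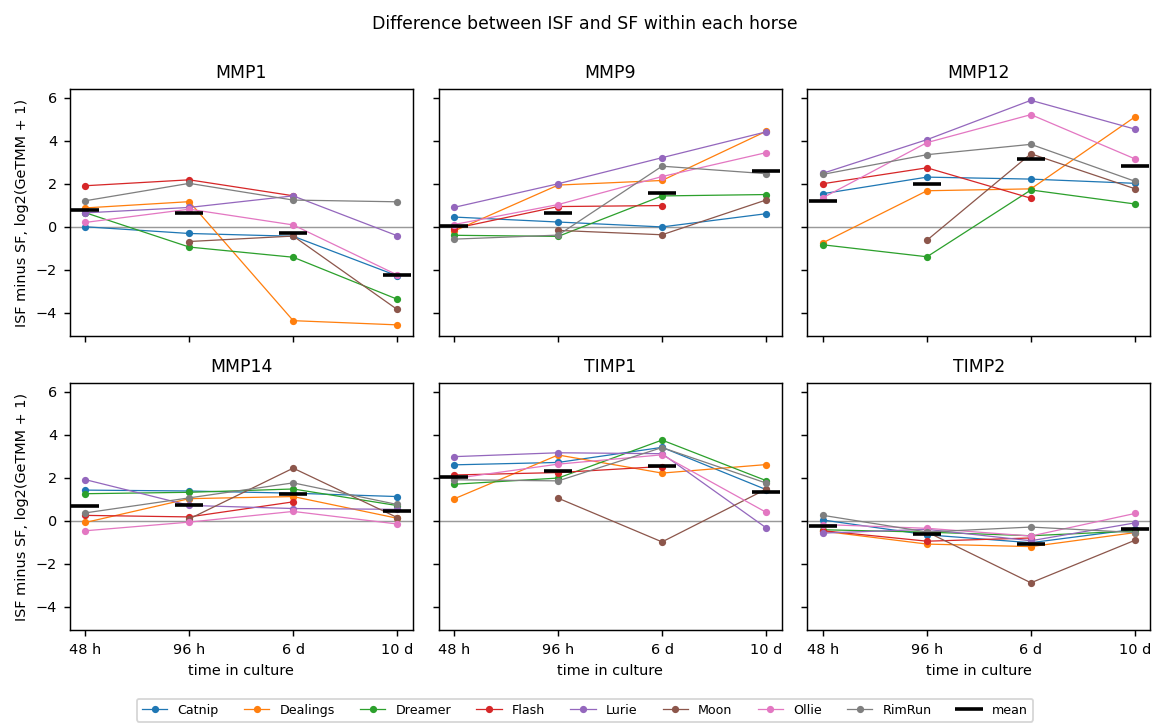
Difference between the ISF and SF culture of the same horse, as log2(GeTMM + 1) in ISF minus SF, at 48 h, 96 h, 6 d and 10 d for 6 members. Lines are horses and black bars are means: MMP12 lay above 0 in all horses at 6 d and 10 d and MMP9 in all horses at 10 d, TIMP2 lay below 0 in all horses at 96 h and 6 d, and Moon stood apart at 6 d for TIMP1 and TIMP2.

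No member passed the test of whether the ISF to SF difference itself changed between consecutive times. At an unadjusted p under 0.05, 0 members passed for 48 h to 96 h, 0 for 96 h to 6 d and 3 for 6 d to 10 d (MMP1, TIMP1 and TIMP2), and limma voom on recovered reads gave the same numbers. Of all tested genes, 0.0206%, 0% and 0.226% were called in these 3 comparisons. From 96 h to 6 d 0 members were called in either fluid, with 3 in ISF (MMP1, MMP12 and MMP14) and 1 in SF (TIMP2) at an unadjusted p under 0.05, against 6.38% and 2.05% of all genes called.

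Over the first 48 h 5 of 8 members were called in each fluid (MMP12, MMP14, TIMP1 and TIMP2 higher, MMP9 lower), against 52.7% of all genes in ISF and 45.4% in SF. From 48 h to 96 h 2 members were called in ISF (19% of all genes) and 3 in SF (27.3%). From 6 d to 10 d 2 were called in ISF (10.5%) and 1 in SF (4.78%). Over the whole culture, from 0 h to 10 d, 6 of 8 members were called in ISF (74.5% of all genes) and 8 of 8 in SF (69.6%). The net changes of the fluids share their 0 h libraries. MMP1 ended lower than it began in both, by -5.19 in ISF and -2.97 in SF on the log2 scale, and TIMP2 ended higher, by 1.12 and 1.5. MMP14 ended higher by 6.35 and 5.89 and TIMP1 by 4.84 and 3.52.

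The order of the groups by mean log2 level differed between members, and steps and SDs here are on the log2 scale. For MMP1 it ran from ISF at 48 h, over uncultured cells and SF at 48 h, to ISF at 10 d. Only the steps from SF at 48 h to ISF at 96 h and from ISF at 6 d to ISF at 10 d were larger than the larger SD of the neighbours. For MMP9 ISF at 10 d came first and SF at 6 d last, and no pair of neighbours differed by more than its SD. For MMP12 the order began with ISF at 10 d, ISF at 6 d and SF at 10 d. Neither pair of neighbours among these differed by more than the larger SD, while ISF and SF at 10 d differed as given above. For MMP14 and TIMP1 the highest group was ISF at 6 d, followed by ISF at 10 d, and uncultured cells were last, below SF at 48 h by more than the SD. For TIMP2 the 3 highest groups were SF at 6 d, 10 d and 96 h.

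The makeup of the MMP transcripts differed between times. At 0 h MMP9 made up 54.3% ± 2.89 and MMP1 45.6% ± 2.89 of the summed level of the 6 listed MMPs (SD, n = 8). At 48 h MMP1 alone made up 73.6% ± 9.20 in ISF and 64.6% ± 6.64 in SF (n = 7 per fluid). By 10 d in ISF MMP12 made up 47.3% ± 19.6, MMP9 47.1% ± 15.0 and MMP1 1.42% ± 2.52 (n = 7). In SF at 10 d the shares were 34.0% ± 19.7 for MMP12, 34.4% ± 11.5 for MMP9 and 20.4% ± 15.7 for MMP1. MMP14 made up at most 12.2% of the sum in a group mean, or 13.7% in SF at 6 d without Moon.

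Among the inhibitors TIMP2 made up 88.0% ± 4.28 of the summed TIMP level at 0 h (n = 8). In SF TIMP2 remained the larger share, at 76.2% ± 4.72 at 48 h, 82.6% ± 3.18 at 6 d (83.1% ± 3.12 without Moon) and 63.5% ± 17.6 at 10 d. In ISF TIMP1 was the larger share, at 59.6% ± 11.3 at 48 h, 70.9% ± 9.81 at 6 d and 63.4% ± 8.30 at 10 d. The level of TIMP1 was above that of TIMP2 on average in each ISF group and below it in each SF group. The ratio of TIMP1 to TIMP2 was higher in ISF in 7 of 7 horses at 48 h, 8 of 8 at 96 h, 8 of 8 at 6 d and 6 of 7 at 10 d.

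The ratio of the summed MMP level to the summed TIMP level had a median of 20.8 in uncultured cells (range 14.5 to 30.5). It fell to 5.63 in ISF and 6.69 in SF at 48 h, where ISF was higher in 2 of 7 horses. At 96 h it was 1.98 in ISF and 1.59 in SF, and it was higher in ISF in 5 of 8 horses. At 6 d the medians were 3.07 in ISF and 1.35 in SF, with ISF higher in 6 of 8 horses. Without the Dealings and Dreamer libraries the 96 h ISF median was 1.82 (ISF higher in 4 of 6 horses), and without Moon the 6 d SF median was 1.39 (5 of 7). The 10 d medians were 8.32 in ISF (range 2.17 to 17.1) and 2.75 in SF (range 0.419 to 4.19), with ISF higher in 6 of 7 horses. These ratios are over transcript levels and carry no test, since they sum over the chosen members.

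**Figure D4:**
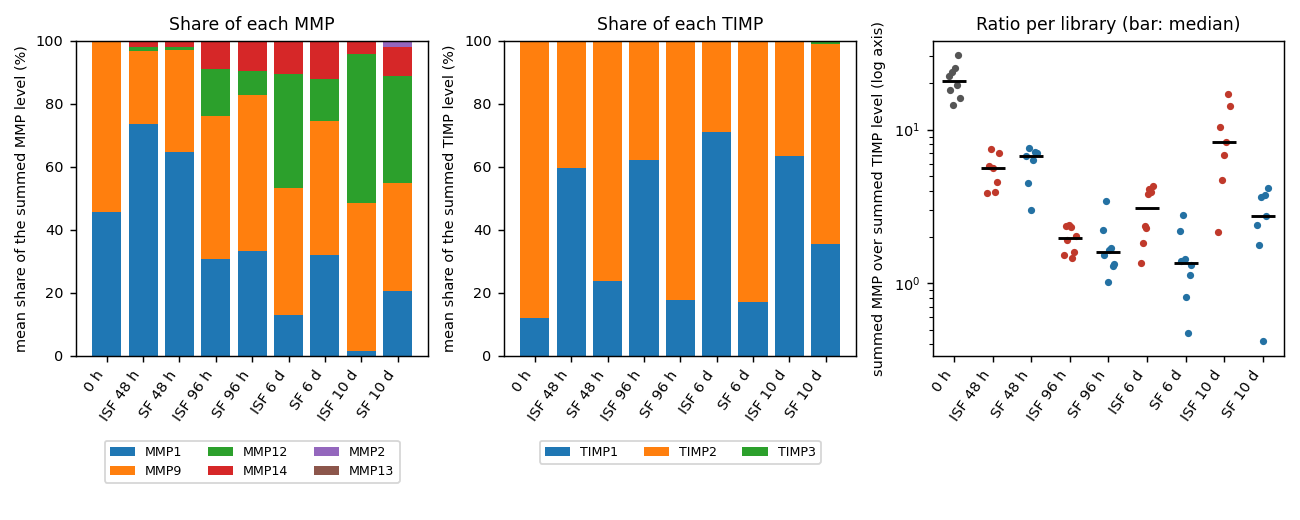
Mean share (%) of each MMP in the summed MMP level and of each TIMP in the summed TIMP level by group, and the ratio of the 2 sums in each library on a log axis (points are libraries, black bars are medians). MMP1 had a smaller and MMP12 a larger mean share at 10 d than at 48 h, TIMP1 was the larger TIMP share in ISF and TIMP2 in SF, and the median ratio was 20.8 at 0 h and 8.32 and 2.75 at 10 d in ISF and SF.

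The ratio of MMP9 to TIMP1 was lower in ISF in 7 of 7 horses at 48 h (median 1.84 against 6.64) and in 8 of 8 at 96 h (1.40 against 4.21, and 1.24 and 6 of 6 without Dealings and Dreamer). At 6 d it was higher in ISF in 2 of 8 horses (1.72 against 2.94), and in 1 of 7 without Moon (SF median 2.96). At 10 d it was higher in ISF in 4 of 7 horses (4.21 against 2.61). The ratio of MMP14 to TIMP2 was higher in ISF in 6 of 7 horses at 48 h, 8 of 8 at 96 h, 8 of 8 at 6 d (median 0.706 against 0.196) and 6 of 7 at 10 d. The lowest single value of this ratio in SF at 6 d, 0.00902, was that of Moon, and without it the SF median was 0.209 with ISF higher in 7 of 7 horses.

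Other genes of the pathway gave a few calls. Of 15 other MMPs 13 were listed and 6 tested, and none was called at 48 h, 96 h or 6 d. At 10 d MMP15 and MMP25 were lower in ISF, against 10.8% of all tested genes lower. MMP25, a membrane-anchored protease of leukocytes, was 2.75 ± 0.910 GeTMM in ISF and 12.4 ± 12.3 in SF (log2 -1.38, SE 0.38, FDR 0.00501, n = 7 per fluid). MMP15 was below 1.2 GeTMM in every library. Of 9 ADAM and ADAMTS proteases 5 were tested, and 0, 1, 3 and 0 were higher in ISF at 48 h, 96 h, 6 d and 10 d, with 0 lower, against 0.872%, 6.16%, 16.7% and 9.95% of all tested genes higher. ADAMTS1, a protease that cuts the proteoglycan aggrecan and versican, was 80.1 ± 45.0 GeTMM in ISF and 21.2 ± 13.1 in SF at 96 h (log2 1.88, SE 0.45, FDR 0.00271, n = 8 per fluid). At 6 d ADAMTS1 was 124 ± 65.9 and 33.5 ± 10.9 GeTMM (log2 1.74, SE 0.45, FDR 0.00193). ADAM9 and ADAM10, membrane sheddases, passed the test as higher in ISF at 6 d (log2 0.84, FDR 0.0048, and 0.58, FDR 0.0479). The aggrecanases ADAMTS4 and ADAMTS5 failed the filter, with at most 1.21 and 3.10 GeTMM in a library.

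Plasmin activates several MMP proenzymes. Of 8 named activators and genes of the plasminogen system 6 were tested, and 0, 2, 4 and 1 were higher in ISF at these 4 times, with 0 lower, against the same shares of all tested genes. PLAUR, the urokinase receptor, was 176 ± 54.6 GeTMM in ISF and 26.9 ± 11.3 in SF at 6 d (log2 2.7, SE 0.29, FDR 5.28e-11, n = 8 per fluid). It was also higher at 96 h (log2 1.87, FDR 3.96e-06) and at 10 d (log2 2.09, FDR 7.49e-07). PLAU, which encodes urokinase itself, was 120 ± 24.5 and 54.1 ± 15.8 GeTMM at 6 d (log2 1.19, SE 0.19, FDR 9.23e-07). FURIN, the convertase that removes the prodomain of MMP14, was higher in ISF at 96 h (log2 0.82, SE 0.23, FDR 0.0153) and 6 d (log2 0.87, SE 0.23, FDR 0.00299). At 10 d FURIN differed by -0.27 (FDR 0.49). KLKB1, which encodes plasma prekallikrein, was higher at 6 d (log2 1.16, FDR 1.59e-05). Of 5 other inhibitors, clearance receptors and inducers 4 were tested, and LRP1, a receptor that takes up MMP and TIMP complexes, was called at 6 d (log2 0.60, SE 0.23, FDR 0.0372).

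The genes whose log2 levels were most like each member over the 68 libraries differed between members. These correlations are descriptions, since the libraries share horses, groups and depth. Those given for MMP1 are IL18RAP (Pearson's r 0.89) and RAB24 (0.88). MMP9 was most like ITGB7 (0.83), TRIM7 (0.76) and ALDOA (0.74). MMP12 was most like MSANTD3-TMEFF1 (0.95), DYNC1LI2 (0.94) and SIGLEC15 (0.94), the last of which encodes a lectin of osteoclasts and macrophages. MMP14 was most like NUAK1 (0.97), ADAM9 (0.97) and C3AR1 (0.96).

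TIMP1 was most like the chemokine gene CCL11 (0.92), FAM20A (0.91) and the chemokine gene CCL2 (0.90). TIMP2 was most like POLR2I (0.88), OPLAH (0.88) and RNASEH2B (0.87). MMP2 was most like APBB2 (0.77), the collagen gene COL5A2 (0.76) and RFTN2 (0.75). TIMP3 was most like MXRA5, FBN1 and DKK3 (0.91 each), of which FBN1 encodes the matrix protein fibrillin 1. Among the members themselves, the highest r values were those of MMP12 and TIMP1 (0.79), MMP12 and MMP14 (0.77), and MMP14 and TIMP1 (0.76). MMP1 and MMP12 had the lowest (-0.70).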

How the data were processed

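The values used were the deposited GeTMM table, in which the authors had corrected read counts for gene length (as RPKM) and scaled libraries by trimmed means. Per the labels and methods, reads were stranded paired-end reads mapped to EquCab3.0 with STAR 2.7.2a and counted per Ensembl gene. The 14570 genes that reached 0.5 GeTMM in 7 or more libraries were fitted as log2(GeTMM + 1) on 9 groups with limma 3.58.1 (R 4.3.3; empirical Bayes with trend, two-sided), and p-values were adjusted over all tested genes of a comparison (Benjamini-Hochberg). Called means FDR under 0.05. Fold changes are on the log2(GeTMM + 1) scale and understate changes of low genes. Since the table holds whole reads per length, reads were recovered for 24064 of 24065 genes within 0.02 reads, which gave the depth (15653436 to 35971635 reads) and a voom fit as an alternative. That fit called 174, 1532, 4287 and 2920 genes between the fluids at 48 h, 96 h, 6 d and 10 d. The depth limits the precision of low genes only, and counts cover counting error only.

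Samples were grouped by fluid and time from the labels. Each group came from 7 or 8 of the same 8 horses, so horse pairs the libraries: ISF and SF deviations from their group means correlated over 0.1 in 26 of 30 pairs (median r 0.36). Alternatives were a horse block, another pseudocount (0.1), no filter, rescaling, library weights, only the compared groups, a limit of 1 on the log2 change, and leaving out libraries or horses. The members and gene lists were chosen with earlier results of these data known. All listed members are named. Other pathway genes are named where called in a fluid comparison (up to 4 per list, by size of change), and genes most like a member by the 3 highest correlations. One of these genes is not reported here. T cell, megakaryocyte and endothelial marker lists were computed: their mean log2 levels in ISF and SF at 10 d were 1.40 and 4.09, 1.04 and 1.76, and 1.96 and 2.06. No gene coordinates are given because the annotation used for gene order is of another build. The fit and the recovery of reads were tested on simulated data. Figures were drawn with matplotlib 3.10.9 and tables made with pandas 2.3.3.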

Additional observations from a re-analysis of the deposited data

Results flagged for a closer look

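In 19 of 81 groups of 7 or 8 libraries, 1 library lay far from the others by Dixon's criterion. Chance gives about 1 in 20 only for normally distributed values, whereas GeTMM was used here without logs, so these shares cannot be compared. In MMP13 groups where all other libraries had 0 reads, any read met the criterion. For MMP2 these were the ISF cultures of RimRun at 48 h (4.82 GeTMM), 96 h (8.49) and 6 d (7.00), and the SF culture of Lurie at 10 d (99.0). For TIMP3 they were the SF cultures of Lurie at 6 d (19.4 GeTMM) and 10 d (78.0). For MMP12 it was the SF culture of Dreamer at 48 h (61.8 GeTMM).

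For TIMP1 they were Flash at 0 h (52.2 GeTMM), Lurie in ISF at 48 h (801), Moon in SF at 6 d (431) and Lurie in SF at 10 d (1182). For TIMP2 they were Flash in SF at 48 h (332 GeTMM) and Moon in SF at 6 d (1659). For MMP13, which had few reads, they were RimRun in SF at 48 h (0.0124 GeTMM), Ollie in ISF at 96 h (0.611), in SF at 96 h (0.385) and in ISF at 6 d (0.235), Moon in SF at 6 d (0.397) and Lurie in SF at 10 d (1.03).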

How the results depend on the processing

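Of 44 called member values, 37 stayed called under every alternative other than the limit on the log2 change and none changed direction. A limit of 1 on the log2 change kept 40 of the 44. Over all 136 member values and 2312 alternative values, 2218 kept direction and side of the threshold, 21 lost the call, 39 gained it and 34 changed sign, all of the last among values that were not called. With horse as replicate block 7 values gained a call and none lost one, and the count of members called between the fluids at 96 h was 4, against 2 without the block, while calls over all tested genes were 2431 against 1524. The block also gained the call of MMP12 in each ISF interval after 48 h. In SF from 6 d to 10 d it gained those of MMP12 and TIMP1. The 96 h count was also 4 with library weights, 1 without the Dealings and Dreamer ISF libraries and 1 with a log2 limit of 1. It ran from 1 to 4 when single horses were left out (1 without Dealings, 4 without Moon). Library weights gave 2 members in place of 1 at 48 h and 14 in place of 9 over the ISF intervals. Over all genes library weights also raised the calls, from 245 to 2233 at 48 h, from 1524 to 4206 at 96 h and from 2764 to 4941 in ISF from 48 h to 96 h. At 10 d the count was 2 to 4 in place of 4 when single horses were left out (2 without Dealings). Values that changed sign when each library was rescaled to the same sum were those of MMP1 in SF from 6 d to 10 d (0.0557), MMP9 in ISF from 48 h to 96 h (-0.0629), MMP14 in SF from 96 h to 6 d (-0.00910) and the change of the MMP14 fluid difference from 48 h to 96 h (-0.0347). With library weights they were the changes of the fluid difference from 48 h to 96 h of MMP1 (0.0630) and MMP14 (-0.0509) and TIMP2 in ISF from 96 h to 6 d (0.00495). With voom they were the change of the MMP2 fluid difference from 48 h to 96 h (-0.33), TIMP3 between the fluids at 48 h (0.0237) and 6 d (0.34), and the change of the latter from 96 h (1.03). A pseudocount of 0.1 turned TIMP3 at 6 d (0.0296) and that change (0.48). Without the Dealings and Dreamer ISF libraries, MMP9 in ISF from 48 h to 96 h was -0.10 and the change of the MMP14 fluid difference was -0.16. The cause of these changes was not tested. When single horses were left out, the fluid difference ran from -0.559 to 0.270 for MMP1 at 6 d, -0.937 to 0.00567 for MMP2 at 10 d, -0.119 to 0.128 for MMP9 at 48 h, -0.0453 to 0.0180 for TIMP3 at 48 h and -0.685 to 0.128 for TIMP3 at 6 d. Its change from 48 h to 96 h ran from -0.268 to 0.0625 for MMP1 and -0.121 to 0.256 for MMP14, and from 96 h to 6 d from -0.547 to 0.344 for TIMP3. The change over an interval ran from -0.251 to 0.0799 for MMP1 in SF from 6 d to 10 d, -0.134 to 0.204 for MMP9 in ISF from 48 h to 96 h, -0.277 to 0.0548 for TIMP1 in ISF from 6 d to 10 d and -0.0535 to 0.417 for TIMP1 in SF from 96 h to 6 d. Few reads limit the values of MMP2, MMP12 at 0 h, MMP13 and TIMP3.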
